A study of Mus musculus with 15 samples.

Results

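The integrin subunits that receive collagen, fibronectin and laminin were followed as 10 named genes, *Itga1*, *Itga2*, *Itga3*, *Itga5*, *Itga6*, *Itga10*, *Itga11*, *Itgav*, *Itgb1* and *Itgb3*. They were picked by name, without use of their counts, from the 24134 genes of the deposited tables, and all 10 had a row in both tables and passed the filter on low counts in each fit. RNA was sequenced from primary articular chondrocytes at passage 0, taken from the femoral condyles and tibial plateaus of ICR mice aged 4 to 5 days and kept in DMEM with 10% serum. The question was how these receptors respond when tankyrase is removed or inhibited. Tankyrase, encoded by *Tnks* and *Tnks2*, attaches ADP-ribose chains to its target proteins.

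The 15 libraries form 5 groups of 3 biological replicates. In the siRNA set, cells were transfected with METAFECTENE PRO and either a control siRNA (siCtrl) or siRNAs to both *Tnks* and *Tnks2* (siTnks/2), for a time that is not given in the sources used here. In the drug set, cells received DMSO as vehicle, or 10 µM XAV939 or 10 µM IWR-1, both small-molecule tankyrase inhibitors, for 108 h. The strain, cell source and culture were common to all groups. The sets were handled as separate experiments, so each treated group was tested only against its own control, and XAV939 and IWR-1 share the same 3 DMSO libraries. How many mice gave each culture is not given in the sources used here.

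An integrin is a pair of 1 alpha and 1 beta chain that spans the cell membrane and ties the matrix outside to the actin cytoskeleton inside. The beta chain *Itgb1* pairs with most of the alpha chains described here, and the alpha chain decides which ligand is held. *Itga1*, *Itga2*, *Itga10* and *Itga11* make collagen receptors with *Itgb1*. *Itga3* and *Itga6* make laminin receptors. *Itga5* with *Itgb1* is the classical fibronectin receptor, and *Itgav* with *Itgb3* or other beta chains binds vitronectin, osteopontin and other ligands through a short RGD motif. *Itga10* is the collagen receptor typical of chondrocytes, whose matrix is built on type II collagen, whereas *Itga11* is typical of fibroblasts and *Itga5* and *Itgav* are made by many adherent cells.

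Library totals ran from 26857070 to 36615194 counts. *Tnks* measured 69.0, 58.4 and 70.1 CPM (counts-per-million of the library) in siCtrl and 19.5, 12.7 and 24.0 CPM in siTnks/2, and *Tnks2* fell from 115 to 120 CPM down to 44.9 to 61.2 CPM, so every siTnks/2 library lay below every control (adjusted p = 0.00569 for *Tnks* and 0.00384 for *Tnks2*). The chondrocyte label held in all groups, with *Col2a1*, the collagen of cartilage, between 20881 and 142760 CPM. Fibroblast markers were also present, their summed level of 7 genes being 12216 to 15308 CPM in DMSO, 6378 to 8368 CPM in XAV939 and 5833 to 8793 CPM in IWR-1. In DMSO this was mostly *Col1a1* (5489 to 6295 CPM), *Col1a2* (3098 to 4079 CPM) and *Col3a1* (3056 to 4410 CPM). *Pdgfra* was at 167 to 290 CPM there, *S100a4* at 156 to 229 CPM, *Thy1* at most 4.81 CPM and *Dpt* at most 1.69 CPM. The 7 leukocyte markers summed to 4.32 to 15.3 CPM over the libraries, mostly *Cd68* (up to 10.2 CPM) and *Lyz2* (up to 5.29 CPM), with *Ptprc*, *Tyrobp* and *Cd3e* at most 0.157 CPM. The 4 osteoblast markers summed to 118 to 168 CPM in siTnks/2 and to 75.7 to 104 CPM over all other groups. The 4 muscle markers summed to at most 7.54 CPM, with *Acta1* up to 6.91 CPM and *Myod1* at most 0.153 CPM. The 5 endothelial markers summed to 0.873 to 1.41 CPM in DMSO and lower in the inhibitor groups, and to 0.416 to 7.77 CPM in siTnks/2, the highest being replicate 2, where *Pecam1* was at 3.17 CPM and *Cdh5* at 2.28 CPM. In whole cultures such as these, fewer cells of a type and less RNA per cell cannot be told apart.

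Tankyrase knockdown changed 5 of the 10 subunits. *Itga10* and *Itgb3* rose, and *Itga2*, *Itga3* and *Itgav* fell, by the edgeR quasi-likelihood test at an adjusted p under 0.05. Of the 13672 genes tested in this set, 18% were called, 10.4% higher and 7.61% lower. The median log2 fold change of the 10 subunits was -0.20, and that of all genes tested was -0.0012. With the replicate number as a block in the fit, 8 subunits were called, since *Itga6* rose (adjusted p = 0.0181) and *Itga1* (adjusted p = 0.0203) and *Itgb1* (adjusted p = 0.0187) fell as well. Without siCtrl replicate 1 the count was 1, without siCtrl replicate 2 or 3 it was 2, and without siTnks/2 replicate 1 it was 3. DESeq2 called 7.

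XAV939 changed 4 of the 10 subunits, all of them downward, namely *Itga1*, *Itga2*, *Itga11* and *Itgav*. The 2 with positive log2 fold changes, *Itga10* and *Itga6*, were not called. Of the 13873 genes tested in the drug set, XAV939 changed 17.4%, with 7.57% higher and 9.85% lower. The median log2 fold change of the subunits was -0.39, against 0.02 over all genes. The replicate block raised the count to 9 subunits, adding *Itga6* (adjusted p = 0.000818) and *Itga10* (adjusted p = 0.0165) as higher and *Itga5* (adjusted p = 0.0444), *Itgb1* (adjusted p = 0.0406) and *Itgb3* (adjusted p = 0.0234) as lower. DESeq2 called 5. The count fell to 1, a decrease, in the fit of DMSO and XAV939 alone and without DMSO replicate 1 or XAV939 replicate 1. It was 0 without XAV939 replicate 2. Without DMSO replicate 3 all 4 decreases were lost, and the only call was a rise, of *Itga10* (adjusted p = 0.0377).

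IWR-1 changed 5 of the 10 subunits. *Itga6* and *Itga10* rose, and *Itga3*, *Itga11* and *Itgav* fell. This compound changed 36.4% of all genes tested, 16.2% higher and 20.2% lower. The median log2 fold change was -0.23 over the subunits and 0.01 over all genes. The block added *Itga5*, which fell (adjusted p = 0.0160). The count was 3 without DMSO replicate 1, DMSO replicate 3 or IWR-1 replicate 1, and 2 without IWR-1 replicate 2, and *Itga6* and *Itga10* were called in all 16 alternatives.

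**Figure D1:**
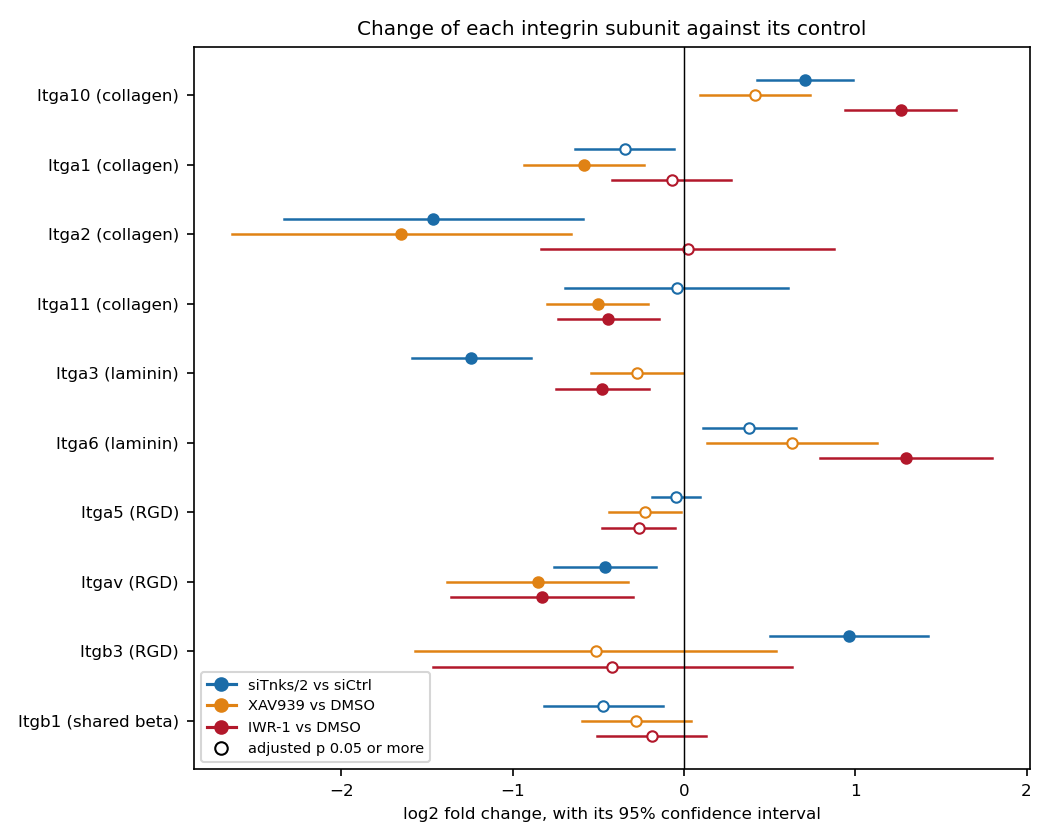
Log2 fold change of each subunit in siTnks/2 against siCtrl, XAV939 against DMSO and IWR-1 against DMSO, with 95% confidence intervals; filled points have an adjusted p under 0.05 and open points do not. Itga10 and Itga6 lie to the right of 0 in each comparison, Itga10 being called after knockdown and after IWR-1, and Itgav lies to the left and is called in each.

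Among the collagen receptors, *Itga10*, the chondrocyte type, rose after knockdown and with IWR-1. It measured 126, 157 and 127 CPM in siCtrl and 211, 253 and 205 CPM in siTnks/2. Every knockdown library was above every control library. The increase was 1.63-fold (log2 0.71, SE 0.12, adjusted p = 0.0121). Without siCtrl replicate 1 or replicate 3 the adjusted p was 0.0581 and 0.0571, at log2 fold changes of 0.66 and 0.66.

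In the drug set *Itga10* was at 35.5, 40.2 and 48.1 CPM in DMSO, 49.6, 65.9 and 49.7 CPM in XAV939, and 90.3, 107 and 99.8 CPM in IWR-1. The 3 groups did not overlap, although the highest DMSO library lay just under the lowest XAV939 library. IWR-1 raised *Itga10* by 2.40-fold (log2 1.26, SE 0.15, adjusted p = 8.36e-05). The XAV939 value was log2 0.41 (SE 0.15, 95% interval 0.09 to 0.74) and missed the threshold at an adjusted p of 0.0752, passing it with the replicate block (0.0165), with upper-quartile scaling (0.0477) and without DMSO replicate 3 (0.0377). *Itga10* was 1.80-fold higher in IWR-1 than in XAV939 (log2 0.85, adjusted p = 0.00287).

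The *Itga10* gene (Entrez 213119) spans chr3:96645584-96664519 on the plus strand of GRCm38, the assembly also called mm10. A shorter coding model on the same strand, *Gm42957*, shares its start, and how the counting treated reads in this overlap is not given in the sources used here. Its promoter is shown beside that of *Itga11* because the ratio of these collagen receptors is followed further on. Each line gives the 250 bases before the RefSeq start site on the strand of the gene, 5′ to 3′, from the RefSeq promoter table of GRCm38.p6, chr3:96645334-96645583 for *Itga10* and chr9:62677605-62677854 for *Itga11*, both on the plus strand. Capitals mark matches to the motifs searched.
Itga10: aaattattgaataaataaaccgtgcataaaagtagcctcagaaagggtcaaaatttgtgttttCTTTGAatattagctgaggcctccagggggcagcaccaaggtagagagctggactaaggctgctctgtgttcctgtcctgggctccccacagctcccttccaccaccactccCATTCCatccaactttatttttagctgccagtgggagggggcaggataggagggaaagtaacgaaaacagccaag
Itga11: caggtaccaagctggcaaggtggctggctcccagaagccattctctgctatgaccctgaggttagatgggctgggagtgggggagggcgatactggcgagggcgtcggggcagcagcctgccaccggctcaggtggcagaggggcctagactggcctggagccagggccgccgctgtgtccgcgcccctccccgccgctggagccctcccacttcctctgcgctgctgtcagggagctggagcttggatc

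The motifs, chosen after these sequences had been seen, were ACAAAG and ACAATG (SOX factors), CTTTGA (TCF/LEF factors), GGAATG (TEAD factors) and TGANTCA (AP-1), each searched on both strands. No match of these motifs overlapped another in the *Itga10* window. That window held CTTTGA, its first base 187 bases before the start, and the reverse of GGAATG, its first base 75 bases before the start. The *Itga11* window held none of the 5 motifs. Of all 32851 promoter windows of this length, 16.5% held ACAAAG, 10.7% ACAATG, 13.8% CTTTGA, 12.6% GGAATG and 6.75% TGANTCA. Of the subunits, 8 had an entry in the table, all but *Itga6* and *Itgb3*. CTTTGA was also found before *Itga1*, ACAAAG before an inner start of *Itga3* and before *Itgb1*, and GGAATG before *Itgb1*, whereas *Itga2*, *Itga5* and *Itgav* held no match. The *Itga10* window was 48% G and C, that of *Itga11* 68.4%, and the median of all windows 52.4%.

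*Itga11*, the collagen receptor typical of fibroblasts, fell with both inhibitors. In the drug set it measured 56.9, 41.9 and 55.8 CPM in DMSO, 39.4, 32.6 and 37.1 CPM in XAV939, and 39.8, 34.5 and 39.6 CPM in IWR-1. Both treated groups lay wholly below DMSO and overlapped each other. XAV939 lowered it by 1.42-fold (log2 -0.50, SE 0.13, adjusted p = 0.0265) and IWR-1 by 1.36-fold (log2 -0.44, SE 0.13, adjusted p = 0.0246). Both calls were lost without DMSO replicate 1 (adjusted p = 0.110 and 0.102), without DMSO replicate 3 (0.0579 and 0.0571) and, for IWR-1, without IWR-1 replicate 1 (0.0504) or replicate 2 (0.107), and the XAV939 call was lost without XAV939 replicate 2 (0.0829). In the fit of DMSO and XAV939 alone its adjusted p was 0.0588.

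In the siRNA set, *Itga11* was at 35.1, 21.2 and 34.9 CPM in siCtrl and 30.9, 19.8 and 38.0 CPM in siTnks/2. The groups overlapped, and replicate 2 was the lowest of both. The change was log2 -0.04 (SE 0.27, 95% interval -0.69 to 0.61, adjusted p = 0.926).

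*Itga2*, a collagen receptor of epithelial cells, platelets and other cells, was a scarce transcript that fell after knockdown. It measured 19.5, 13.2 and 26.3 CPM in siCtrl and 5.73, 4.67 and 10.997 CPM in siTnks/2. The groups did not overlap, and the decrease was 2.75-fold (log2 -1.46, SE 0.37, adjusted p = 0.0378). The adjusted p was between 0.0541 and 0.118 when siCtrl replicate 1, 2 or 3 or siTnks/2 replicate 1 was left out.

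Among the drug libraries *Itga2* was close to the detection limit. It had 47, 28 and 49 counts in DMSO, 7, 10 and 21 in XAV939, and 61, 26 and 42 in IWR-1. The XAV939 libraries were all below the DMSO libraries, whereas IWR-1 and DMSO overlapped. XAV939 lowered *Itga2* by 3.14-fold (log2 -1.65, SE 0.45, adjusted p = 0.0283), and IWR-1 gave log2 0.02 (95% interval -0.83 to 0.88). *Itga2* was 3.19-fold higher in IWR-1 than in XAV939 (log2 1.67, adjusted p = 0.0255). The filter that asks for 10 counts in every library drops this gene. The XAV939 call was lost without DMSO replicate 1 (adjusted p = 0.0906), DMSO replicate 3 (0.0682), XAV939 replicate 1 (0.0947) or XAV939 replicate 2 (0.0849), and the difference between the compounds was lost without IWR-1 replicate 1 (0.101) or replicate 3 (0.0515) and without XAV939 replicate 1 (0.0876) or replicate 2 (0.0718).

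*Itga1*, a collagen receptor of mesenchymal and muscle cells, fell with XAV939. It measured 17.9, 18.5 and 26.5 CPM in DMSO, 14.7, 12.9 and 14.2 CPM in XAV939, and 19.8, 18.01 and 21.98 CPM in IWR-1. All XAV939 libraries lay below all DMSO and all IWR-1 libraries, while IWR-1 overlapped DMSO. The change with XAV939 was -0.58 on the log2 scale (SE 0.16, adjusted p = 0.0287), and IWR-1 stood 1.43-fold above XAV939 (log2 0.51, SE 0.16, adjusted p = 0.0476). The XAV939 adjusted p was 0.0541 without DMSO replicate 3 and between 0.0509 and 0.0872 without any 1 of the XAV939 replicates, and it was 0.0607 with only the compared groups in the fit. The difference between the compounds ended in 9 of 16 alternatives, among them the loss of any 1 IWR-1 or XAV939 replicate (adjusted p up to 0.150).

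For the siRNA set, *Itga1* was at 53.4, 51.6 and 56.4 CPM in siCtrl and 41.1, 35.8 and 50.2 CPM in siTnks/2. The groups did not overlap, yet the log2 value of -0.34 (SE 0.12) had an adjusted p of 0.0919 without the block. The *Itga1* gene overlaps 2 other coding models on its strand, *Pelo* and *Gm49395*, so some of its reads could belong to them.

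**Figure D2:**
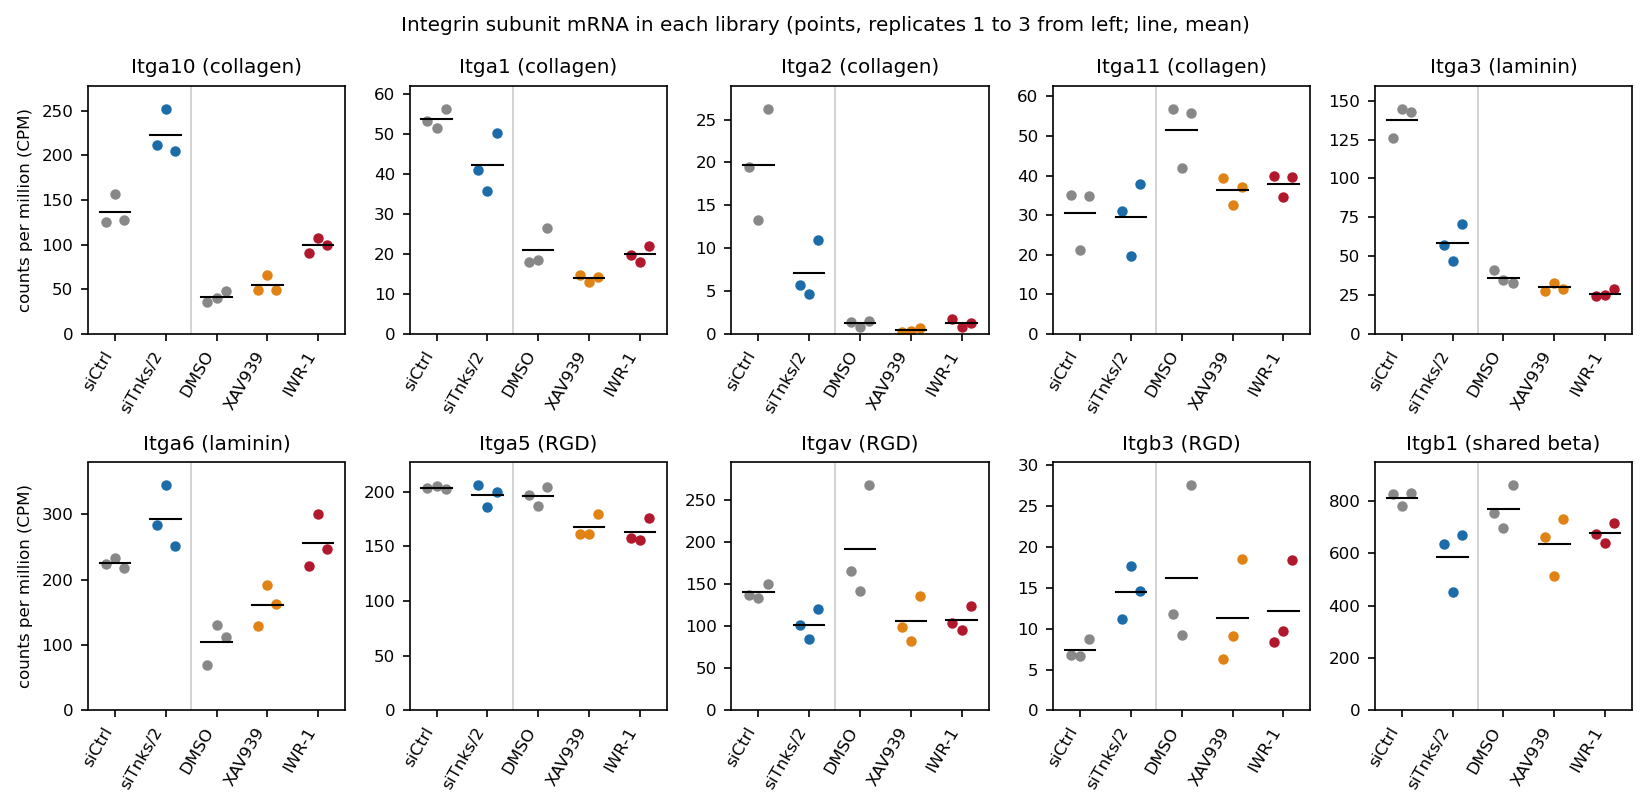
Counts-per-million (CPM) of each subunit in every library of the 5 groups, each panel with its own linear axis from 0; points are libraries, the short line is the group mean, and the vertical line parts the siRNA set from the drug set. Itga10 and Itga6 step upward from DMSO through XAV939 to IWR-1, and 1 DMSO library stands high for Itgav and Itgb3.

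With IWR-1 the laminin receptors moved in opposite directions. *Itga6*, which forms laminin receptors with *Itgb1* or *Itgb4*, measured 68.9, 130 and 113 CPM in DMSO, 128, 191 and 163 CPM in XAV939, and 220, 300 and 246 CPM in IWR-1. The IWR-1 libraries lay above all others, and the highest DMSO library lay just above the lowest XAV939 library. IWR-1 raised *Itga6* by 2.46-fold (log2 1.30, SE 0.23, adjusted p = 0.00115). XAV939 gave log2 0.63 (SE 0.22, adjusted p = 0.0777), past the threshold with the block (0.000818), with DESeq2 (0.0366) and without DMSO replicate 2 (0.0387). IWR-1 exceeded XAV939 by log2 0.67 (adjusted p = 0.0658, or 0.000645 with the block).

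After knockdown *Itga6* was at 283, 344 and 251 CPM, against 224, 233 and 218 CPM in siCtrl. The groups did not overlap, and replicate 2 was the highest of both. In siTnks/2, replicate 2 is the library with endothelial transcripts, whose markers summed to 7.77 CPM there. That library also had the lowest *Tnks* (12.7 CPM) and *Tnks2* (44.9 CPM) of its group. *Itga6* is also made by endothelial cells. The value was log2 0.38 (SE 0.12, adjusted p = 0.0607), and without siTnks/2 replicate 2 it was 0.25 (adjusted p = 0.0477). The part of endothelial transcripts or of the depth of knockdown in the value was not tested.

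*Itga3*, the other laminin receptor, fell after knockdown. It measured 126, 145 and 143 CPM in siCtrl and 57.0, 47.1 and 71.0 CPM in siTnks/2. The groups were far apart, and the decrease was 2.36-fold (log2 -1.24, SE 0.15, adjusted p = 0.00554). It was called in all 12 alternatives, with adjusted p-values up to 0.0321.

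With the inhibitors the change of *Itga3* was smaller. It was at 40.9, 34.7 and 32.5 CPM in DMSO, 27.9, 32.5 and 29.2 CPM in XAV939, and 24.2, 24.7 and 28.8 CPM in IWR-1. IWR-1 lay wholly below DMSO, whereas 1 XAV939 library came level with the lowest DMSO library. IWR-1 lowered it by 1.39-fold (log2 -0.48, SE 0.12, adjusted p = 0.0106), a call lost without DMSO replicate 1 (0.0550) or IWR-1 replicate 2 (0.0525). The XAV939 value was log2 -0.27 (SE 0.12, adjusted p = 0.149).

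In a model over all 15 libraries that compares the effects of an inhibitor and of the knockdown, 13.5% of 14271 genes differed for XAV939 and 24.4% for IWR-1. For XAV939 the difference was called in 1 of the 10 subunits, *Itga3*, whose change was log2 0.95 higher than after knockdown (SE 0.19, adjusted p = 0.00550). For IWR-1 it was called in 2, *Itga3* (log2 0.76, SE 0.19, adjusted p = 0.0101) and *Itga6* (log2 0.90, SE 0.29, adjusted p = 0.0337). The *Itga6* difference was called in 14 of 21 alternatives. It was lost without DMSO replicate 1, IWR-1 replicate 2, siCtrl replicate 1, 2 or 3 or siTnks/2 replicate 1 or 3 (adjusted p = 0.0533 to 0.0999), whereas both *Itga3* differences were called in all 21. The controls stood at different levels, with mean *Itga3* at 138 CPM in siCtrl and 36.0 CPM in DMSO, and *Itga6* at 225 and 104 CPM. The set, the agent and the transfection differ together between these experiments and cannot be told apart. Whether the treatment time differs as well is not given in the sources used here. With the block, 3 and 6 subunits differed, *Itgb3* and *Itga11* being added for XAV939 and *Itga2*, *Itga10*, *Itga11* and *Itgb3* for IWR-1. The XAV939 count was 2 without XAV939 replicate 3, and the IWR-1 count was 1 without each of DMSO replicate 1, IWR-1 replicate 2, siCtrl replicate 1, siCtrl replicate 3 and siTnks/2 replicate 1.

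Of the RGD-binding subunits, *Itgav* was called lower in each comparison with a control. It measured 137, 133 and 150 CPM in siCtrl and 101, 84.2 and 120 CPM in siTnks/2. The groups did not overlap. The decrease was 1.38-fold (log2 -0.46, SE 0.13, adjusted p = 0.0484), just past the threshold, and the adjusted p was between 0.0956 and 0.139 when any 1 siCtrl replicate or siTnks/2 replicate 1 was left out.

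With the inhibitors and vehicle, *Itgav* was at 165, 142 and 267 CPM in DMSO, 99.3, 82.8 and 135 CPM in XAV939, and 104, 95.3 and 124 CPM in IWR-1. All treated libraries lay below all DMSO libraries, and DMSO replicate 3 stood far above the other two. That library also had the highest *Tnks* level of its group, 64.1 CPM against 26.2 and 20.0 CPM. Replicate 3 was the highest of each drug group for both *Itgav* and *Tnks*. XAV939 lowered *Itgav* by 1.81-fold (log2 -0.85, SE 0.24, adjusted p = 0.0329) and IWR-1 by 1.78-fold (log2 -0.83, SE 0.24, adjusted p = 0.0196). Without DMSO replicate 3 the log2 values were -0.55 (adjusted p = 0.0813) and -0.52 (adjusted p = 0.0559). The XAV939 call was also lost without DMSO replicate 1 (0.0556), XAV939 replicate 1 (0.0979) or XAV939 replicate 2 (0.119) and with only the compared groups in the fit (0.0613), and the IWR-1 call without IWR-1 replicate 1 (0.0622) or replicate 2 (0.0776). The compounds themselves differed by log2 0.02 with a 95% interval from -0.50 to 0.55.

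*Itgb3*, the beta chain of the vitronectin receptor, was scarce and rose after knockdown. It measured 6.78, 6.69 and 8.79 CPM in siCtrl and 11.2, 17.6 and 14.7 CPM in siTnks/2, with no overlap. The increase was 1.95-fold (log2 0.96, SE 0.19, adjusted p = 0.01997), and without siCtrl replicate 1 or replicate 2 the adjusted p was 0.0812 and 0.0719. Among the drug libraries it was at 11.8, 9.28 and 27.6 CPM in DMSO, 6.33, 9.16 and 18.6 CPM in XAV939, and 8.37, 9.69 and 18.4 CPM in IWR-1. Replicate 3 was the highest of each of these groups, and the groups overlapped. The log2 values were -0.51 (95% interval -1.57 to 0.54) for XAV939 and -0.42 (-1.47 to 0.63) for IWR-1, and without DMSO replicate 3 they were 0.09 and 0.20.

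*Itga5*, the fibronectin receptor chain, was not called in any comparison before the alternatives were applied. It measured 203, 206 and 202 CPM in siCtrl and 206, 186 and 200 CPM in siTnks/2. The groups overlapped, and the log2 fold change was -0.05 with a 95% interval from -0.19 to 0.10 (adjusted p = 0.628). With vehicle and inhibitors it was at 197, 187 and 204 CPM in DMSO, 161, 161 and 180 CPM in XAV939, and 158, 156 and 176 CPM in IWR-1. Both treated groups lay below DMSO, at log2 -0.23 (SE 0.10, adjusted p = 0.126) and -0.26 (SE 0.10, adjusted p = 0.0516). Neither passed the threshold, which both did with the block (0.0444 and 0.0160). IWR-1 passed it in 7 of 16 alternatives, among them DESeq2 (0.0271) and the filter of 10 counts in every library (0.04925). It also passed in the fit of DMSO and IWR-1 alone (0.0435) and without IWR-1 replicate 3, XAV939 replicate 2 or XAV939 replicate 3 (0.0360 to 0.0477).

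*Itgb1*, the beta chain that most of these receptors share, was the most abundant member and was not called in any comparison by the edgeR test over all libraries of a set without the block. It measured 828, 779 and 831 CPM in siCtrl and 636, 453 and 671 CPM in siTnks/2. The groups did not overlap, and replicate 2, which in siTnks/2 is the library of endothelial transcripts, was the lowest of both. The log2 value was -0.47 (SE 0.15, adjusted p = 0.0660). Without siTnks/2 replicate 2 it was -0.31 (adjusted p = 0.0180), and DESeq2 and the block also called the decrease (adjusted p = 0.0125 and 0.0187). In the drug set *Itgb1* was at 752, 695 and 860 CPM in DMSO, 662, 511 and 730 CPM in XAV939, and 675, 637 and 715 CPM in IWR-1. These groups overlapped, at log2 -0.28 (95% interval -0.60 to 0.04) for XAV939 and -0.19 (-0.51 to 0.13) for IWR-1.

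Set against each other, the compounds differed in 3 of the 10 subunits, all higher in IWR-1 (*Itga1*, *Itga2* and *Itga10*). Between the compounds the test called 17.6% of all genes tested, 7.37% higher and 10.2% lower in IWR-1. The dose and time were matched. XAV939 binds tankyrase in the nicotinamide pocket of its catalytic domain, and IWR-1 in the adenosine pocket. For *Itga5* the difference was log2 -0.04 (95% interval -0.25 to 0.17), and for *Itga11* 0.06 (-0.23 to 0.36). The replicate block added *Itga6*. The count of 3 was 1 with the filter of 10 counts in every library and without IWR-1 replicate 1, IWR-1 replicate 3, XAV939 replicate 1 or XAV939 replicate 2, where only *Itga10* passed.

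The ratio of *Itga10* to *Itga11*, *Itga5* or *Itgav* was taken within each library, so that library scaling drops out. These references were grouped as fibroblast-type by name only, since many adherent cells make *Itga5* and *Itgav*. Relative to *Itga11*, the log2 ratio was -0.68, -0.06 and -0.21 in DMSO, 0.33, 1.02 and 0.42 in XAV939, and 1.18, 1.64 and 1.33 in IWR-1. The groups rose in that order with no overlap, from fewer *Itga10* than *Itga11* reads in each DMSO library to more in each treated library. In the siRNA set the log2 ratio was 1.84, 2.88 and 1.87 in siCtrl and 2.77, 3.67 and 2.43 in siTnks/2. Those groups overlapped, and replicate 2 was the highest of both, while the siTnks/2 library lay above the siCtrl library of the same number in all 3 pairs. These genes have nearly equal exon lengths, 5186 bases for *Itga10* and 5131 for *Itga11*.

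Relative to *Itga5*, the group mean log2 ratio was -2.26 ± 0.20 in DMSO, -1.62 ± 0.29 in XAV939 and -0.72 ± 0.16 in IWR-1 (SD, n = 3), and -0.58 ± 0.17 in siCtrl and 0.17 ± 0.24 in siTnks/2. Relative to *Itgav* it was -2.17 ± 0.33, -0.93 ± 0.56 and -0.11 ± 0.25 in the drug set and -0.04 ± 0.24 and 1.14 ± 0.41 in the siRNA set. In both ratios each treated group lay above its control without overlap. The shift in the ratio to *Itgav* was the widest, log2 2.06 for IWR-1, 1.24 for XAV939 and 1.18 for siTnks/2. Leaving out any 1 library kept all 9 shifts positive, the smallest being 0.41 for *Itga11* after knockdown. Since the subunits were set against each other by name and with earlier results known, no test is given for these ratios.

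**Figure D3:**
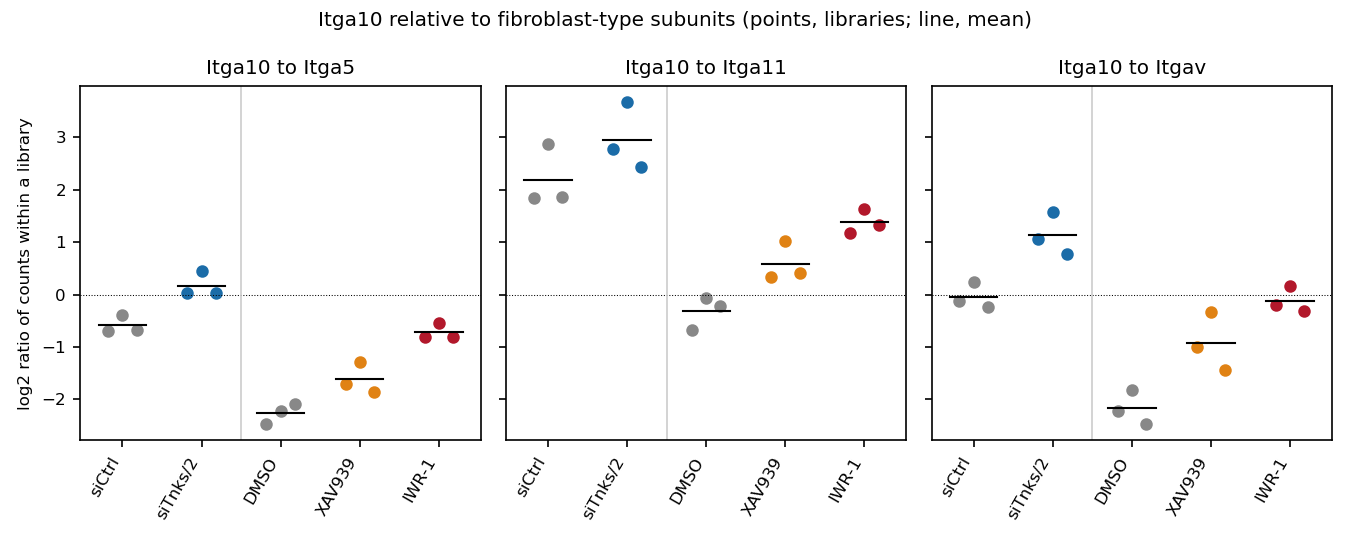
Log2 ratio of Itga10 counts to Itga5, Itga11 and Itgav counts within each library (pseudocount 0.5) for the 5 groups; points are libraries, the short line is the group mean, and the dotted line marks equal counts. In the drug set each ratio rises from DMSO through XAV939 to IWR-1, and in the siRNA set siTnks/2 lies above siCtrl, with overlap for Itga11.

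Levels of different genes were compared as CPM per kb of exon. In DMSO, *Itgb1* was the highest at 188 ± 20.5 CPM per kb (SD, n = 3), followed by *Itga5* at 39.7 ± 1.75. Then came *Itgav* (17.8 ± 6.21), *Itga6* (11.5 ± 3.49), *Itga11* (10.1 ± 1.63), *Itga10* (7.96 ± 1.23) and *Itga3* (6.31 ± 0.76), neighbours whose ranges overlapped. *Itgb3* (2.75 ± 1.68), *Itga1* (1.13 ± 0.26) and *Itga2* (0.18 ± 0.05) were the lowest. In XAV939, *Itga6* (17.8 ± 3.48) came next after *Itga5*, above *Itga10* (10.6 ± 1.81) and *Itgav* (9.85 ± 2.51), which overlapped each other. In IWR-1, *Itga6* (28.3 ± 4.49) and *Itga10* (19.1 ± 1.64) were next after *Itga5*, above *Itgav* (10.0 ± 1.37) and *Itga11* (7.40 ± 0.59) without overlap.

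In siCtrl, *Itgb1* (199 ± 7.15 CPM per kb) and *Itga5* (41.3 ± 0.34) led again. *Itga10* (26.3 ± 3.35), *Itga6* (24.9 ± 0.86) and *Itga3* (24.1 ± 1.82) followed at levels that overlapped. In siTnks/2, *Itga10* was second at 43.0 ± 5.01, level with *Itga5* (40.0 ± 2.14), while *Itga3* was at 10.2 ± 2.10. The order depends on the length used, since counted per kb of coding sequence *Itga10* ranked 6 in siCtrl and 3 in siTnks/2. By that measure *Itgav* stood above *Itga10* in XAV939 (33.8 against 15.7 CPM per kb) and in IWR-1 (34.4 against 28.3 CPM per kb), the reverse of their order per kb of exon.

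**Figure D4:**
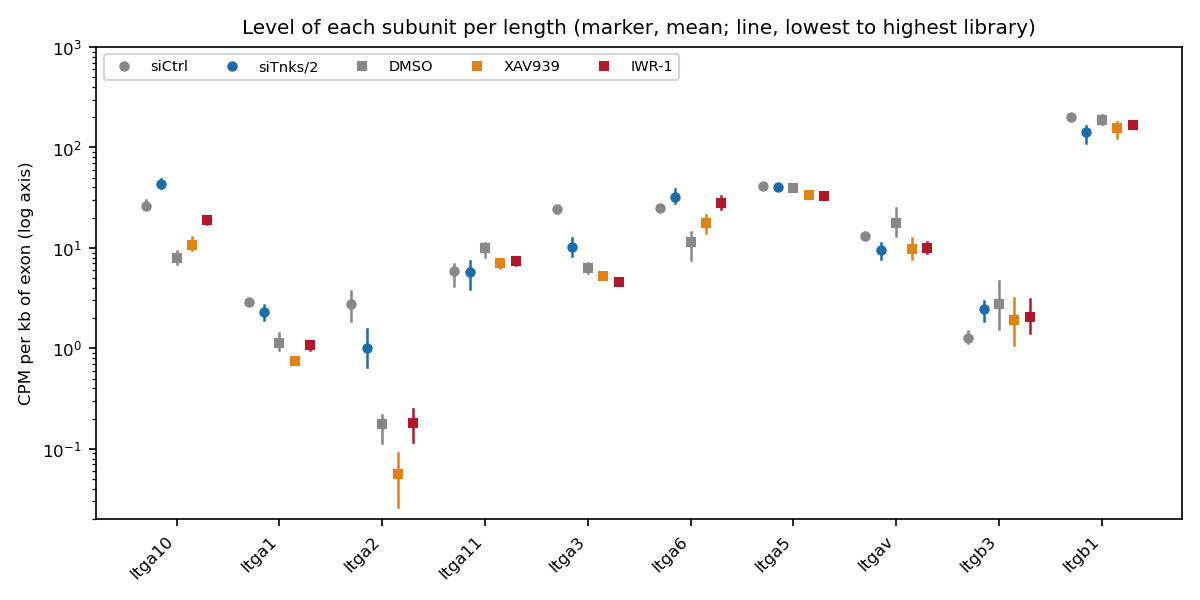
Level of each subunit in CPM per kb of exon on a log axis; markers are group means and lines run from the lowest to the highest of 3 libraries. Itgb1 is the highest in every group, and Itga2 the lowest in every group of the drug set.

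The genes most alike to a subunit in pattern were found by Pearson's r of log2 CPM over the 9 drug libraries, which share their 3 groups. For *Itga10* they were *Sec14l1* (r = 0.996), *Fry* (0.995), *Rragc* (0.993), *Slc7a1* (0.990) and *Dock8* (0.990). Over the 6 siRNA libraries the same pairs gave 0.932, 0.901, -0.949, 0.879 and -0.206, so *Rragc* and *Dock8* did not go with *Itga10* there. For *Itga11* the nearest were *Gm14403* (0.952) and *Alcam* (0.952), then *Arhgef28*, *Gm14326* and *Csnk1g1*, with r between -0.27 and 0.32 in the siRNA set. For *Itga5* they were *Trim16* (0.991), *Selp* (0.986), *Aqp5* (0.985), *Adam9* (0.985) and *Masp1* (0.983). *Selp* was too low to be tested in the siRNA set, and the others gave r between 0.544 and 0.908 there. Among the members, *Itga10* and *Itga6* had r = 0.93 over the drug libraries and 0.92 over the siRNA libraries. Values of this size were not particular to that pair. Over the drug libraries *Itga5* and *Itgav* also had r = 0.93. In the siRNA libraries *Itga1* and *Itgav* had r = 0.99, *Itga10* and *Itga2* -0.95, and *Itga6* and *Itgav* -0.99.

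Of 16 other integrin subunits, 11 passed the filter in the siRNA set and 10 in the drug set. IWR-1 lowered 4 and raised none, XAV939 lowered 2 and raised none, and the knockdown lowered 1 and raised 2, where 36.4%, 17.4% and 18% of all genes were called. The XAV939 count was 1 without DMSO replicate 1 or 2 or XAV939 replicate 1 or 2, and the knockdown count was 1 without siCtrl replicate 1 or siTnks/2 replicate 1. *Itga7*, a laminin receptor of muscle, fell from 24.4, 22.4 and 19.9 CPM in DMSO to 5.01, 6.72 and 5.401 CPM in XAV939 (log2 -1.96, SE 0.15, adjusted p = 4.62e-05) and 3.52, 2.86 and 2.99 CPM in IWR-1 (log2 -2.83, SE 0.16, adjusted p = 1.52e-06). After knockdown it stood higher, at 13.1, 18.3 and 12.0 CPM against 8.24, 9.90 and 8.57 CPM (log2 0.70, SE 0.18, adjusted p = 0.0371), a call lost without any 1 siCtrl replicate or siTnks/2 replicate 1 (0.0760 to 0.132).

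*Itga8*, an RGD receptor of mesenchymal cells, fell in each comparison. It was at 3.78, 3.41 and 2.99 CPM in DMSO, 1.78, 1.65 and 1.94 CPM in XAV939 and 0.465, 0.642 and 1.04 CPM in IWR-1. The groups stood apart, with log2 -0.92 (adjusted p = 0.0244) for XAV939, lost without DMSO replicate 1 or 2 or XAV939 replicate 1 or 2 (0.0506 to 0.0948), and -2.23 (adjusted p = 8.82e-05) for IWR-1. Knockdown gave log2 -0.77 (adjusted p = 0.0121), which was lost without siCtrl replicate 1 (0.0602) or siTnks/2 replicate 1 (0.0522).

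IWR-1 also lowered *Itga9*, a receptor for tenascin and osteopontin, by 2.99-fold (adjusted p = 0.00110), and *Itgb2*, the beta chain of leukocyte integrins, by 1.98-fold (adjusted p = 0.00193), calls that no alternative ended. Of the leukocyte partners of *Itgb2*, *Itgal*, *Itgam* and *Itgax* were at most 0.283 CPM in every library, and *Itgad* was at most 0.979 CPM. The 7 leukocyte markers summed to 11.4 to 15.3 CPM in DMSO and 6.66 to 9.28 CPM in IWR-1. Where IWR-1 lowered 20.2% of all genes tested, it lowered 2 of the 4 tested leukocyte markers. These were *Cd68*, at 7.32 to 10.2 CPM in DMSO and 3.98 to 4.70 CPM in IWR-1 (adjusted p = 0.000880), and *Csf1r*, at 0.943 to 1.19 and 0.289 to 0.667 CPM (adjusted p = 0.0215). *Ptprc*, *Tyrobp* and *Cd3e* were at most 0.157 CPM in both groups, and the part of leukocyte transcripts in the *Itgb2* value was not tested. *Itgad* was called higher after knockdown (adjusted p = 0.00635) on 25, 15 and 30 counts against 3, 1 and 2. The remaining tested subunits *Itga2b*, *Itga4*, *Itgb4*, *Itgb5*, *Itgb6*, *Itgb7* and *Itgb8* were not called in any comparison with a control. *Itgb5*, the usual partner of *Itgav* besides *Itgb3*, was by far the highest of them at 251 to 378 CPM, with log2 0.17 for knockdown, 0.21 for XAV939 and -0.02 for IWR-1. The block raised the counts to 7 for knockdown and 4 for XAV939.

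**Figure D5:**
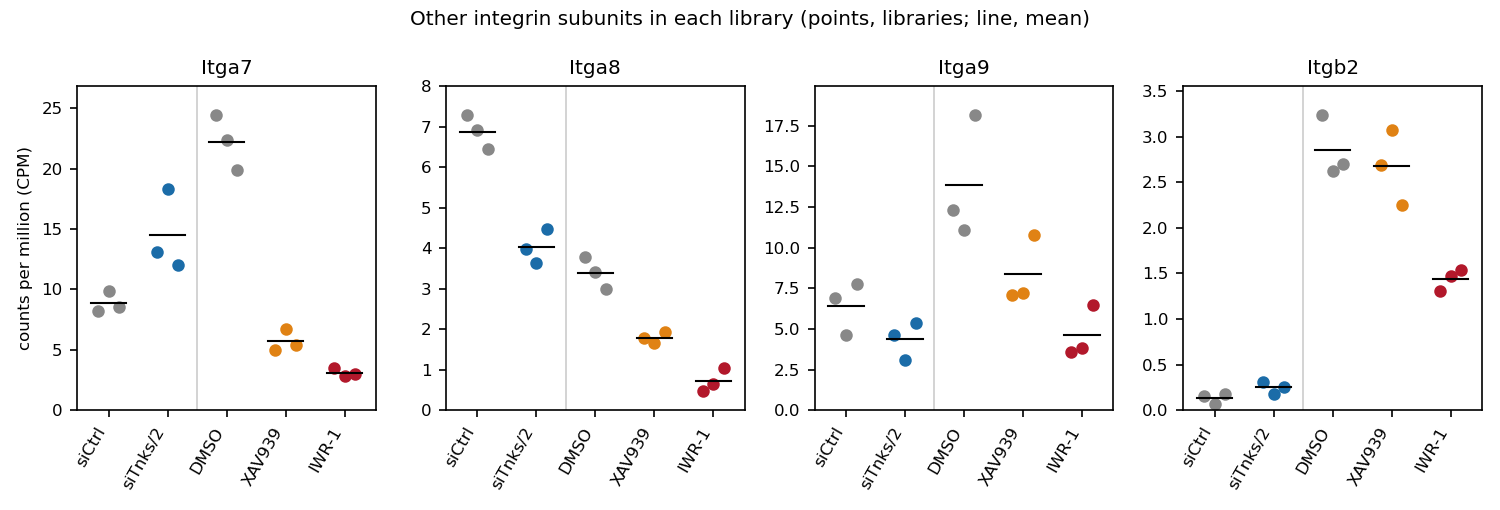
Counts-per-million (CPM) of Itga7, Itga8, Itga9 and Itgb2 in every library of the 5 groups, on linear axes from 0; points are libraries, the short line is the group mean, and the vertical line parts the siRNA set from the drug set. Itga7 is lowered by both inhibitors but stands higher in siTnks/2 than in siCtrl.

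Of the 17 collagen chains that act as ligands, IWR-1 raised 7 and lowered 3, XAV939 raised 4 and lowered 4, and the knockdown raised 4 and lowered none, beside 36.4%, 17.4% and 18% of all genes called. The list's median log2 fold change was 0.15, 0.16 and 0.31, where the all-gene medians were 0.01, 0.02 and -0.0012. Of the chains that rose, *Col10a1*, of hypertrophic cartilage, rose by 8.41-fold with IWR-1 (adjusted p = 6.89e-07), 2.60-fold with XAV939 (adjusted p = 0.000122) and 2.72-fold after knockdown (adjusted p = 0.0117). *Col9a3*, of the type IX collagen on cartilage fibrils, rose by 2.23-fold with XAV939 and 2.13-fold after knockdown, and *Col11a2* by 4.87-fold with IWR-1. Of those that fell with the inhibitors, 2 are chains of fibrous tissue, *Col1a1* lower by 2.62-fold with IWR-1 and 2.24-fold with XAV939, and *Col5a2* by 2.53-fold and 2.02-fold. The XAV939 count fell from 8 to 5 without DMSO replicate 1. After knockdown 9 chains rose and 3 fell with the block and 10 rose and 1 fell by DESeq2, whereas the count was 2 without siCtrl replicate 2 or siTnks/2 replicate 1 and 1 without siCtrl replicate 3, and 7 without siTnks/2 replicate 2. Without siCtrl replicate 1 no chain was called (*Col9a3* at an adjusted p of 0.0564 and *Col10a1* at 0.0544). *Col9a3* was also lost without siCtrl replicate 3 (0.0539).

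Among 22 ligands with RGD motifs or of the laminin family, 21 could be tested, and vitronectin (*Vtn*) could not. IWR-1 raised 5 and lowered 7, XAV939 raised 5 and lowered 3, and the knockdown raised 4 and lowered 6, beside 36.4%, 17.4% and 18% of all genes called. Their median log2 fold changes were -0.35, -0.22 and -0.36. Fibronectin itself, *Fn1*, ranged from 16850 to 43300 CPM over all libraries and was not called, at log2 0.03 for IWR-1, -0.29 for XAV939 and -0.20 for knockdown. *Lama5*, a laminin chain of basement membranes, fell in each comparison, by 3.22-fold with IWR-1, 2.76-fold with XAV939 and 2.02-fold after knockdown (adjusted p = 0.000274, 0.00214 and 0.0108). *Spp1*, which encodes osteopontin, fell by 2.69-fold with IWR-1, and *Fbn1*, fibrillin, by 1.65-fold with XAV939. *Lama3* fell by 3.19-fold after knockdown, which was lost without siCtrl replicate 1 or 3 or siTnks/2 replicate 1 (adjusted p = 0.0514 to 0.0659). Of those that rose, *Tgfbi* was higher by 3.24-fold with IWR-1 and 1.57-fold with XAV939, *Lamb3* 2.63-fold with IWR-1, *Postn* 2.32-fold with XAV939, and *Lama1* 2.31-fold and *Edil3* 1.57-fold after knockdown. The *Lama1* call was lost without siCtrl replicate 1 (adjusted p = 0.0525). The block raised the counts to 16 of 21 after knockdown and 13 with XAV939. The knockdown count of 10 was 2 without siCtrl replicate 1, 5 without siCtrl replicate 2, 3 without siCtrl replicate 3 and 4 without siTnks/2 replicate 1, and the XAV939 count of 8 was 5 without DMSO replicate 1.

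The 32 genes of the adhesion machinery link integrins to actin and to signalling. Of 30 tested, IWR-1 raised 5 and lowered 10 and XAV939 raised 1 and lowered 8, and of 28 tested after knockdown 2 rose and 5 fell, where 36.4%, 17.4% and 18% of all genes were called. The median log2 fold changes were -0.28, -0.14 and -0.21. *Vcl*, vinculin, fell by 1.94-fold with IWR-1 (adjusted p = 0.000123) and 1.97-fold with XAV939 (adjusted p = 0.000452). *Fermt2*, kindlin-2, which activates integrins, fell by 1.61-fold with XAV939, and *Bcar1*, an adaptor of focal adhesions, by 2.05-fold with IWR-1. After knockdown *Tgfb1i1* fell by 1.91-fold and *Actn1*, an actin crosslinker, by 1.65-fold. *Tns2*, a tensin, rose by 2.13-fold with IWR-1 and 1.29-fold after knockdown, and by 1.37-fold with XAV939 (adjusted p = 0.0331). That last call was lost in 8 of its alternatives (adjusted p = 0.0502 to 0.130), which were the fit of DMSO and XAV939 alone and those without any 1 DMSO or IWR-1 replicate or XAV939 replicate 2. *Tns3* rose by 1.78-fold with IWR-1, and *Tns1* by 1.30-fold after knockdown. Of these knockdown calls, all 4 were lost without siCtrl replicate 1 (adjusted p = 0.0536 to 0.0722), and others were lost without siCtrl replicate 2 or 3 or siTnks/2 replicate 1 or 3 (0.0515 to 0.0842). The block raised the counts to 14 after knockdown and 15 with XAV939. The knockdown count of 7 was 0 without siCtrl replicate 1, 3 without siCtrl replicate 2 and 1 without siCtrl replicate 3 or siTnks/2 replicate 1. The XAV939 count of 9 was 4 without DMSO replicate 1 or with only DMSO and XAV939 in the fit, and 5 without IWR-1 replicate 1 or 2 or XAV939 replicate 1.

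In the knockdown comparison, 10 of the 13 named genes of these lists and of the other subunits lost their call without siCtrl replicate 1, with adjusted p-values from 0.0525 to 0.132. *Edil3*, *Lama5* and *Itgad* kept theirs. Of all genes tested, 16.2% were called higher with IWR-1, 7.57% with XAV939 and 10.4% after knockdown. Of the 10 chondrocyte markers, 9 rose with IWR-1, 2 with XAV939 and 3 after knockdown, and none fell. With the block 8 rose with XAV939 and 6 after knockdown, and by DESeq2 4 and 6. The knockdown count was 0 without siCtrl replicate 1 or 3, and the XAV939 count was 1 without DMSO replicate 1, without XAV939 replicate 1 or in the fit of only those groups, and 4 without DMSO replicate 2. These markers summed to 24306 to 33238 CPM in DMSO, 32657 to 49814 CPM in XAV939, 79815 to 103436 CPM in IWR-1, 74368 to 101704 CPM in siCtrl and 106822 to 180684 CPM in siTnks/2. Of the 4 osteoblast markers, 2 rose with IWR-1, 2 with XAV939 and none after knockdown, and none fell. Of the 7 fibroblast markers, 5 fell with IWR-1, 4 with XAV939 and none after knockdown (2 fell with the block). Of all genes, 20.2%, 9.85% and 7.61% were called lower in these comparisons. The fibroblast markers summed to 5587 to 9581 CPM in siCtrl and 2868 to 8085 CPM in siTnks/2. Their part in the changes of the subunits was not tested.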

How the data were processed

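Poly(A)+ RNA of 15 cultures was made into stranded libraries with the TruSeq kit and sequenced on an Illumina HiSeq. Per the submitters' processing notes, reads were trimmed with Trimmomatic 0.32, aligned to mm10 with TopHat2 2.0.13 and counted with HTSeq 0.6.1p1. Neither the gene models used for counting nor its strand option is given in the sources used here, so reads of overlapping or antisense genes may be shared or dropped. The authors deposited raw counts for 24134 Entrez IDs in 2 tables, 1 per set, of which 24051 were matched to a symbol in the RefSeq gene table of GRCm38.p6. Library totals were 26857070 to 31254278 counts in the siRNA set and 27438611 to 36615194 in the drug set. Reads carried no molecular identifiers, so copies made by amplification cannot be told from separate molecules in a count.

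Groups were taken from the sample labels. Counts were tested in R 4.3.3 with edgeR 4.0.16 (TMM normalisation, filterByExpr, quasi-likelihood F test, prior count 2), separately for each table, with both inhibitors and DMSO in 1 fit. Whether the effects of inhibitor and knockdown differ was tested as an interaction over all 15 libraries. Every adjusted p in the text is from this test with Benjamini-Hochberg adjustment over all genes tested, unless DESeq2 is named, and a gene was called at an adjusted p under 0.05. The tests were checked on simulated counts. CPM were computed with TMM-scaled library sizes. Levels between genes were compared per kb of exon, with all exons of a gene in the GENCODE annotation merged. The log2 ratio of *Itga10* to another subunit used counts with 0.5 added.

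The 10 subunits, the lists of ligands, adhesion genes and markers and the alternatives were chosen with earlier results of these data known. Named were all 10 subunits, the other tested integrin subunits, the 2 genes of smallest adjusted p in each direction from each list and comparison, and the 5 genes of highest Pearson's r with *Itga10*, *Itga11* and *Itga5* in the drug set. *Ptprc*, *Tyrobp*, *Cd3e*, *Cd68*, *Lyz2*, *Csf1r*, *Acta1*, *Myod1*, *Pecam1*, *Cdh5*, *Col2a1*, *Col1a2*, *Col3a1*, *Pdgfra*, *S100a4*, *Thy1*, *Dpt*, *Fn1*, *Vtn* and the leukocyte alpha chains were named after their values had been seen.

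The column names carry replicate numbers that recur in each group. Deviations from the group means correlated between samples of the same number at 0.42 to 0.52 in the siRNA set and 0.14 to 0.55 in the drug set, every pair being above the limit of 0.1, so each test was repeated with the number added as a blocking factor (replicate block). The labels do not say what a number marks, and samples of different numbers correlated at up to 0.32 in the drug set. Alternatives were other scalings (RLE and upper quartile), other filters on low counts, DESeq2 1.42.0, the block, the fit of only the compared groups, and leaving out each library.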

Additional observations from a re-analysis of the deposited data

Results flagged for a closer look

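The effect of an inhibitor differed from that of the knockdown, by the test of the difference itself over all 15 libraries, for 2 of the 10 subunits. For *Itga3* the log2 change with XAV939 was 0.95 higher than after knockdown (SE 0.19, adjusted p = 0.00550) and with IWR-1 0.76 higher (SE 0.19, adjusted p = 0.0101), since the gene fell by log2 1.24 after knockdown, while the inhibitors gave log2 -0.27 and -0.48. Over the 21 alternatives the highest adjusted p was 0.0166 for XAV939 and 0.0305 for IWR-1. For *Itga6* the log2 change with IWR-1 was 0.90 higher than after knockdown (SE 0.29, adjusted p = 0.0337), at log2 1.30 and 0.38. This call was lost in 7 of the 21 alternatives (adjusted p up to 0.0999). Control levels differed between the sets. Mean *Itga3* was 138 CPM in siCtrl, 58.4 CPM in siTnks/2 and 36.0 CPM in DMSO. Mean *Itga6* was 225 CPM in siCtrl, 104 CPM in DMSO and 255 CPM in IWR-1. The sets differ in agent and transfection, which cannot be told apart here, and the time of the siRNA set is not given. Whether these bear on the difference was not tested.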

How the results depend on the processing

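Each group has 3 libraries, and *Itga2* in the drug set rests on 7 to 61 counts a library. *Itga3* after knockdown and *Itga6* and *Itga10* with IWR-1 were called in every alternative. The replicate block called 8 subunits after knockdown in place of 5, 9 with XAV939 in place of 4, and 3 and 6 in place of 1 and 2 whose XAV939 or IWR-1 effect differed from the knockdown effect. Beyond the members named with it in the text, the block changed no other call of the 10 subunits. With only DMSO and XAV939 in the fit 1 subunit was called, and with at least 10 counts in every library 1 differed between the compounds. With 1 library left out, the counts ran from 1 to 7 after knockdown, 0 to 5 with XAV939, 2 to 6 with IWR-1, 1 to 3 between the compounds, 1 to 2 for the XAV939 effect against the knockdown effect and 1 to 3 for IWR-1. Log2 values that changed sign when a library was left out were all of subunits not called. They ran from -0.26 to 0.18 for *Itga11* after knockdown, -1.09 to 0.092 for *Itgb3* with XAV939, -0.17 to 0.13 for *Itga1*, -0.30 to 0.25 for *Itga2* and -0.86 to 0.20 for *Itgb3* with IWR-1, and -0.75 to 0.25 for *Itga2* between the XAV939 and knockdown effects. Between the compounds they ran from -0.091 to 0.022 for *Itga5*, -0.0093 to 0.13 for *Itga11*, -0.12 to 0.25 for *Itgav*, -0.043 to 0.21 for *Itgb1* and -0.33 to 0.66 for *Itgb3*. The cause of these changes was not tested. Levels per coding length were to come from a protein table, which was not run, and were taken from the annotation instead, a choice made after the data were seen, as was the count of each gene list under the alternatives.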
